A study of Mus musculus with 4 samples.

Results

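Mmp9, matrix metalloprotease 9 or gelatinase B, is 1 of the 300 genes on a custom imaging panel applied to retinal ganglion cells (RGCs) of the mouse. It was chosen with its levels by type in view, and its signal was followed here in 131379 RGCs of 45 types, in 5 retinas and at the position of every cell. Mmp9 is a secreted zinc protease that is released as an inactive precursor, is blocked by the tissue inhibitors of metalloproteases, and cuts gelatin and the type of collagen found in basement membranes. Neurons also make it: it is known as an enzyme released at synapses that reshapes the matrix around dendritic spines, and in the retina it is best known for its rise after optic nerve injury and raised eye pressure.

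All retinas came from unmanipulated wild-type C57BL/6 mice, so the data hold no treatment, genotype or age contrast, and 5 retinas (labelled 1 to 5) are the replicates. The labels do not say whether these are from separate animals, so each p-value measures only the spread between these retinas. Each retina was cut parallel to its surface into sections 20 µm thick, of which 41 are in the table, and Xenium imaging was used to decode single transcripts (puncta) in place. All cells were of class RGC, with 13127 to 41048 cells, a median of 285 to 326 puncta per cell in each retina, and at least 100 puncta in every cell. The RGC markers were present in the types described here: the 6 panel members of the RGC list (Rbpms and Slc17a6 among them) summed to 726 ± 36.2 (SD, n = 5) per 10000 puncta in the type 10_Novel and to 821 ± 24.3 in all types outside the 3 that lead for Mmp9. The sources used here do not say how cells were outlined or typed. If the panel genes, Mmp9 included, were used to assign types, levels by type follow in part from that assignment, so they are given as a description with no test.

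Mmp9 was concentrated in 3 types. 10_Novel, 24_Novel and 16_ooDS_DV (ooDS is the usual abbreviation of ON-OFF direction-selective) made up 9.52% ± 0.62 of cells and held 65.2% ± 1.8 (SD, n = 5 retinas) of the 224880 Mmp9 puncta. In retinas 1 to 5, 10_Novel had 20.5, 18.7, 17.1, 18.7 and 16.7 Mmp9 puncta per cell. In the same order, 24_Novel had 14.5, 12.7, 12.4, 13.2 and 12.3 puncta per cell. 16_ooDS_DV had 8.42, 7.18, 6.26, 7.40 and 6.55. The ranges of the 3 types over retinas did not overlap, and retina 1 was the highest for each. Within a retina, 10_Novel exceeded 24_Novel 1.41 ± 0.042 times and 24_Novel exceeded 16_ooDS_DV 1.83 ± 0.10 times. The gap below them was wider: 16_ooDS_DV stood 4.00 ± 0.40 times above the next type, 23_W3D2, which had 2.21, 1.83, 1.74, 1.59 and 1.64 puncta per cell. Over the median type the leads were 33.7 ± 5.7, 23.96 ± 3.8 and 13.2 ± 2.6 times.

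**Figure D1:**
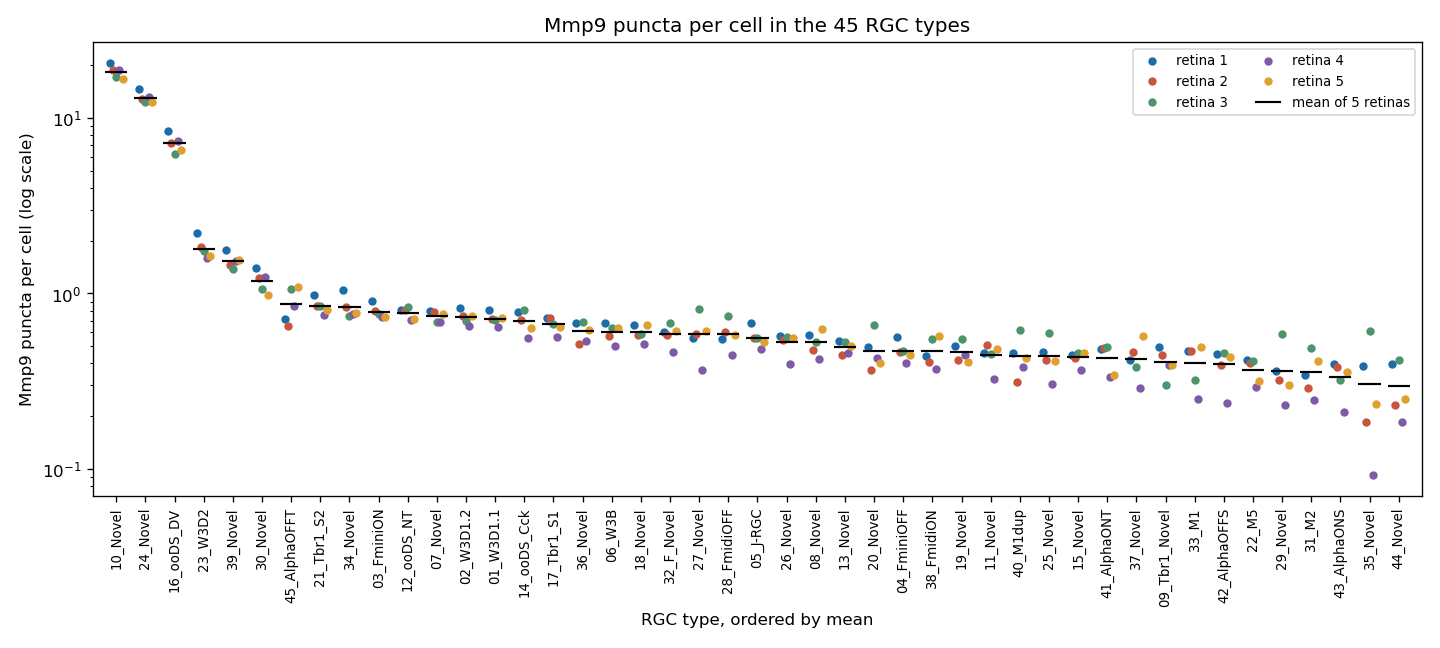
Mmp9 puncta per cell (vertical axis, log scale) in each of the 45 RGC types (horizontal axis, ordered by mean), with 1 point per retina and a bar at the mean of 5 retinas. 10_Novel, 24_Novel and 16_ooDS_DV lie between 6.26 and 20.5 puncta per cell in every retina, while the means of 39 types lie below 1 and their neighbours overlap.

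Below the leading types the order was shallow. 39_Novel followed 23_W3D2 with 1.53 ± 0.15 puncta per cell, then 30_Novel with 1.18 ± 0.16, 45_AlphaOFFT with 0.873 ± 0.20, 21_Tbr1_S2 with 0.848 ± 0.081, 34_Novel with 0.835 ± 0.12 and 03_FminiON with 0.789 ± 0.073. The means of 39 types were below 1 punctum per cell, and the lowest were 43_AlphaONS (0.334 ± 0.074), 35_Novel (0.304 ± 0.20) and 44_Novel (0.296 ± 0.10). Of the 44 neighbouring pairs in this order, 41 overlapped in their range over retinas and 3 did not, those 3 being the steps from 10_Novel down to 23_W3D2. In 5 of the 44 pairs the upper type was higher in all 5 retinas: these 3 steps, 23_W3D2 over 39_Novel, and 39_Novel over 30_Novel. Other neighbours are not resolved by these retinas, while types farther apart can be: 30_Novel (0.981 to 1.39) lay above 21_Tbr1_S2 (0.757 to 0.977), which lay above 43_AlphaONS (0.212 to 0.396). This order is one of counts per cell, and below the leading types it changed relative to depth. Per 10000 puncta 30_Novel (39.6 ± 3.9) was above 39_Novel (36.4 ± 2.8). Their median depths, averaged over retinas, were 288 and 410 puncta per cell. On that scale 45_AlphaOFFT went from rank 7 to 17 and 01_W3D1.1 from 14 to 7.

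Types that share a name differed in Mmp9. Among the 3 ooDS types, 16_ooDS_DV had 9.28 ± 1.2 times the level of 12_ooDS_NT and 10.4 ± 2.0 times that of 14_ooDS_Cck, whose means were 0.776 ± 0.060 and 0.698 ± 0.10 puncta per cell. Among the 4 W3 types, 23_W3D2 stood 2.45 ± 0.16 times above 02_W3D1.2, 2.49 ± 0.18 times above 01_W3D1.1 and 2.99 ± 0.32 times above 06_W3B per cell. Per 10000 puncta these 4 types were at 50.3 ± 4.5, 24.15 ± 1.3, 33.1 ± 1.9 and 18.9 ± 2.1 in the same order. The lead over 01_W3D1.1, whose cells were shallow, was thus smaller on that scale. Among the 4 alpha types, 45_AlphaOFFT was highest and 43_AlphaONS lowest. The 4 types labelled M1, M1dup, M2 and M5, names used for RGCs that carry the photopigment melanopsin, were low per cell, from 0.357 to 0.440 puncta. Per 10000 puncta they were at 16.3 ± 4.1, 13.1 ± 3.0, 11.1 ± 2.7 and 12.2 ± 1.8. On that scale M1 was near the median of 16.1 over the 42 types outside the leading 3.

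The order of the 3 leading types was the same relative to depth and in single sections. Per 10000 puncta of all genes, a scale that removes the cells' own depth, they had 445 ± 27 (10_Novel), 326 ± 13 (24_Novel) and 192 ± 15 (16_ooDS_DV) Mmp9 puncta, against 7.26 to 50.3 in the other 42 types. In 26 sections with at least 20 cells of each, 10_Novel was above 24_Novel and 24_Novel above 16_ooDS_DV in 26 of 26, on both scales. Between those sections 10_Novel ranged from 361 to 656 per 10000 (median 462), 24_Novel from 274 to 377 (median 336) and 16_ooDS_DV from 138 to 239 (median 196). Section ranges of 10_Novel and 24_Novel thus overlapped, while the order within a section held.

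Cells of a leading type were far from uniform. A punctum of Mmp9 was found in 91.0% ± 3.2 of 10_Novel cells, 95.6% ± 1.3 of 24_Novel cells and 81.0% ± 4.3 of 16_ooDS_DV cells, and in 18.1% to 63.5% of cells in the other types. Cells with at least 10 puncta numbered 6572, and 93.3% of them were in the leading types. They made up 76.4%, 70.7%, 67.0%, 70.1% and 65.5% of 10_Novel cells in retinas 1 to 5. The corresponding shares were 58.4% to 68.7% in 24_Novel and 27.4% to 36.5% in 16_ooDS_DV. The highest count in a cell was 102. Counts in 24_Novel peaked near 10 puncta, with a small peak at 0, whereas 16_ooDS_DV fell from its peak at 0 without a separate upper peak, and 10_Novel combined a broad plateau with a peak at 0.

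**Figure D2:**
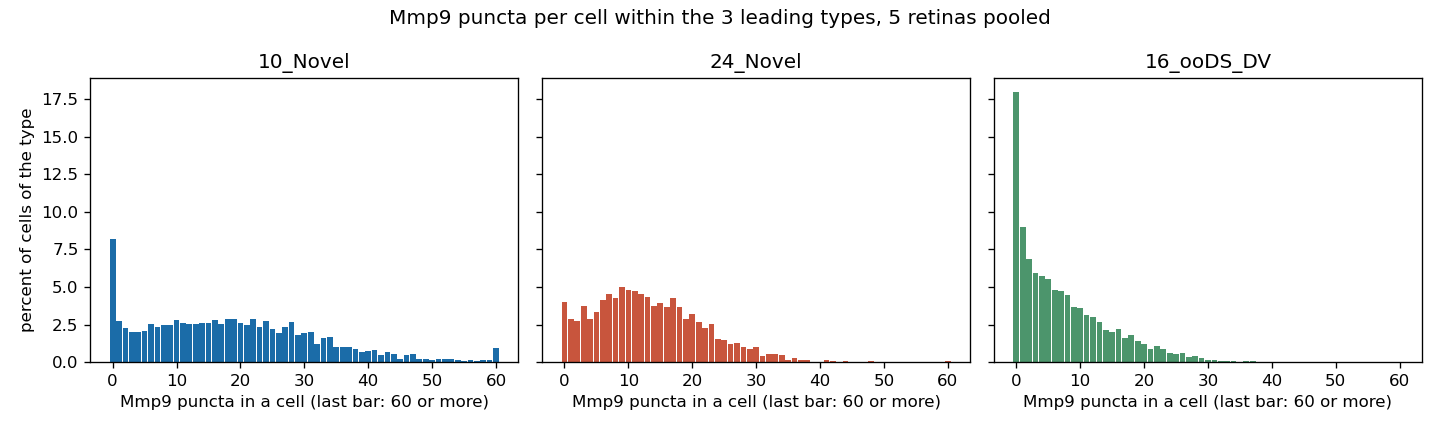
Share of cells (vertical axis, percent of the type, 5 retinas pooled) by number of Mmp9 puncta in the cell (horizontal axis, last bar 60 or more) in 10_Novel, 24_Novel and 16_ooDS_DV. Cells without Mmp9 are 8.21%, 4.02% and 18.0% of the types, the highest single-count bar in 10_Novel and 16_ooDS_DV and a small local peak in 24_Novel.

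Depth moved with these shares. In the shallowest quartile of 10_Novel cells by total puncta, 80.5% ± 6.6 had Mmp9, and in the deepest 97.9% ± 2.2. The shares were 92.0% ± 1.5 and 98.4% ± 1.7 in 24_Novel, and 59.2% ± 7.3 and 95.5% ± 0.85 in 16_ooDS_DV. Per 10000 puncta, which does not rise with depth by itself, 10_Novel still went from 352 ± 45 in the shallowest to 477 ± 38 in the deepest quartile, while the share of cells rich in bipolar genes (at least 10 puncta of them) went from 6.59% to 3.10%. 24_Novel went from 306 ± 20 to 332 ± 15, and 16_ooDS_DV from 166 ± 17 to 210 ± 20 in the third quartile and 191 ± 13 in the deepest. With each cell thinned to 100 puncta, the expected share of cells with Mmp9 was 86.4% in 10_Novel, 89.3% in 24_Novel and 66.1% in 16_ooDS_DV. In the other types the expected share was 6.58% to 33.9%.

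Markers of another cell type moved with the absence of Mmp9. Of the 13 bipolar cell genes on the panel, 12 (all but Isl1, which RGCs share) were summed in each cell, and cells with at least 10 such puncta were called rich in bipolar genes. There were 1212, or 0.923% of all cells, but 4.31% ± 1.5 of 10_Novel and 4.08% ± 2.0 of 16_ooDS_DV, the highest shares of the 45 types, and 1.31% ± 1.1 of 24_Novel. In 10_Novel, 24.9% ± 13 of these cells had Mmp9, against 94.0% ± 2.6 of the remaining cells, and Rbpms, an RNA-binding protein that marks RGCs, was at 1.78 against 7.87 puncta per cell. In 24_Novel, with only 32 such cells, the shares were 42% ± 16 and 96.3% ± 0.84. In 16_ooDS_DV they were 36.5% ± 33 and 83.3% ± 2.9, and retinas 1 to 5 stood at 85.2%, 14.3%, 10.0%, 18.2% and 55.0% in the rich cells. In retina 1, 23 of 27 rich 16_ooDS_DV cells had Mmp9, close to the 86.3% of the remaining cells there, and without that retina the mean was 24.4% ± 21 (n = 4). Rich cells made up 37.7% of the 281 10_Novel cells without Mmp9, 16.8% of the 119 such cells in 24_Novel and 15.4% of the 1060 in 16_ooDS_DV. Without them 10_Novel stood 34.9 ± 5.9 times above the median type.

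Markers of microglia and endothelium, among the other cells known to make Mmp9, were low in the leading types. Levels by type of the Müller glia, astrocyte and pericyte genes are not given here. The 2 microglial genes on the panel, Aif1 and Tmem119, summed to 1.06 ± 0.34 per 10000 puncta in 10_Novel, 0.578 ± 0.14 in 24_Novel and 0.931 ± 0.20 in 16_ooDS_DV, against 2.16 ± 0.27 in the other types. The endothelial cadherin Cdh5 was at 1.46 ± 0.38, 1.35 ± 0.23 and 1.77 ± 0.47, against 3.52 ± 0.65 in the other types. No list member was at 0 in any of them. No neutrophil gene of the list is on the panel.

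The other matrix genes on the panel, taken as Serpine2 and as a sum of 9, did not share this pattern. Levels by type of the 9 single genes are not given here. Of the proteases and inhibitors listed, Mmp9 and Serpine2, a secreted inhibitor of serine proteases, are on the panel, and no listed integrin or other matrix receptor is. Serpine2 was at 1.58 ± 0.45 per 10000 puncta in 10_Novel, 1.41 ± 0.32 in 24_Novel and 1.80 ± 0.26 in 16_ooDS_DV, against 4.20 ± 0.22 in the other types, with ranges over retinas that did not meet. The 9 matrix and matricellular genes (Spp1, Sparc, Npnt, Ndnf, Coch, Igfbp2, Igfbp4, Igfbp5 and Igfbp7) together were at 93.6 ± 13, 88.8 ± 11 and 102 ± 12 in the leading types and at 207 ± 14 in the others.

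The question of where in the retina Mmp9 lies was addressed with 3 splits: cells outside against inside a radius of 0.5 of the table's unit circle, and above against below 0 on its X_circ and Y_circ axes. The labels tie neither axis to a direction in the eye. Over all RGCs Mmp9 was level. Per 10000 puncta it was 53.7 ± 2.8 outside and 52.4 ± 1.6 inside the radius, 52.2 ± 2.6 and 54.0 ± 1.9 above and below 0 on X_circ, and 52.4 ± 2.3 and 53.5 ± 3.6 on Y_circ. In edgeR's quasi-likelihood test with the retina as a block, the log2 differences were 0.02 ± 0.03 (SE, adjusted p = 0.668), -0.04 ± 0.02 (adjusted p = 0.256) and -0.04 ± 0.05 (adjusted p = 0.723). Of the 300 genes, 20 (6.67%) were called on the radius and 30 (10.0%) on X_circ at an adjusted p under 0.05. On Y_circ 0 (0.0%) were called, with 31 at an unadjusted p under 0.05 and 6 by DESeq2.

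Mmp9 outside the leading types tended the other way on the radius. Without these 3 types the log2 difference was -0.12 ± 0.04 (edgeR adjusted p = 0.140), which did not pass. By retina it was -0.24, -0.09, 0.01, -0.19 and -0.02, lower outside in 4 of 5. 10_Novel itself made up a larger share of the cells outside the radius (2.88% ± 0.31) than inside (2.40% ± 0.33), and a larger share above 0 on Y_circ (2.86% ± 0.17 against 2.52% ± 0.32), each in 5 of 5 retinas. With every type given the same weight on both sides (limma on log2 levels), the differences were -0.02 ± 0.03, -0.005 ± 0.03 and -0.06 ± 0.05, with adjusted p of 0.674, 0.982 and 0.630. In that fit 0 of 300 genes (0.0%) were called on any axis, with 69, 42 and 26 at an unadjusted p under 0.05.

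Within single types the largest shift of a leading type was along Y_circ. 10_Novel had 419, 415, 428, 435 and 406 Mmp9 puncta per 10000 above 0 in retinas 1 to 5, and 508, 496, 433, 503 and 406 below. Retinas 1, 2 and 4 were lower above 0, retina 3 differed by 0.02 on the log2 scale, and retina 5 was equal on both sides. The fitted log2 difference was -0.20 ± 0.06 with an adjusted p of 0.227 by edgeR over all pairs of type and gene. 24_Novel had -0.14 ± 0.05 (adjusted p = 0.295) and 16_ooDS_DV -0.13 ± 0.05 (adjusted p = 0.383), so all 3 were lower above 0 but did not pass. Radius and X_circ gave log2 differences between -0.09 and 0.07 in the 3 types. The 9 comparisons of one leading type with another along an axis gave unadjusted p from 0.125 to 0.938 in a two-sided exact sign-flip permutation test, which cannot go below 0.063 with 5 retinas and so cannot pass 0.05.

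**Figure D3:**
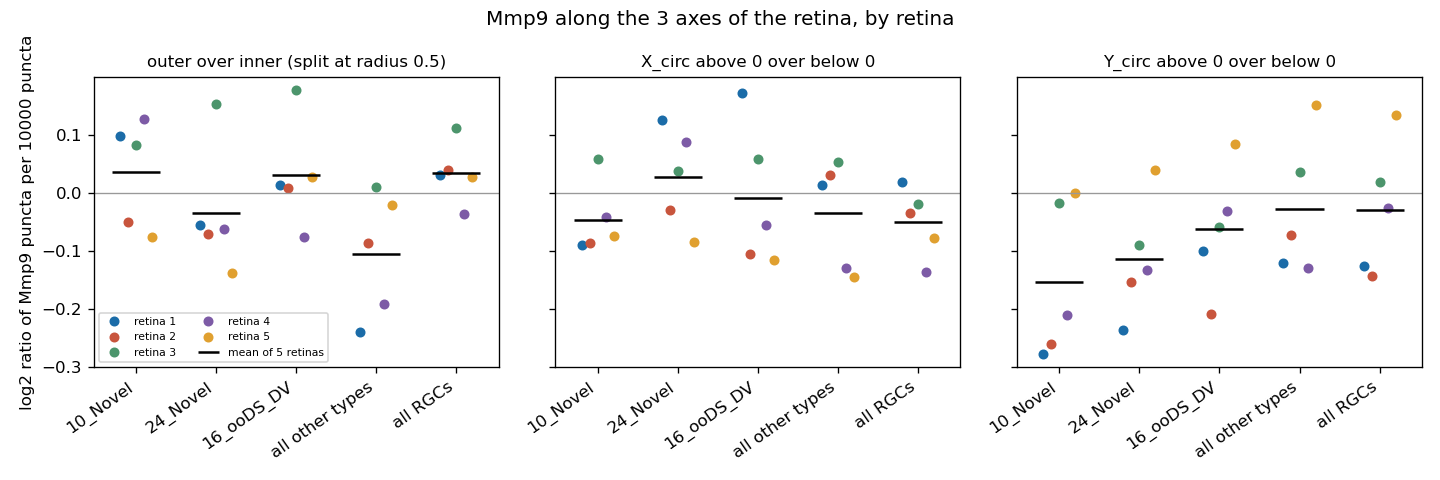
Log2 ratio of Mmp9 puncta per 10000 puncta (vertical axis) between cells on the 2 sides of each split (panels: radius, X_circ, Y_circ) in the 3 leading types, in all other types and in all RGCs, with 1 point per retina and a bar at the mean. Most points lie within 0.2 of 0, and on Y_circ the 10_Novel points run from -0.28 to 0.

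Across all types with enough cells (at least 50 on each side in at least 3 retinas), Mmp9 was called in 0 of 40 types on the radius, 0 of 43 on X_circ and 0 of 42 on Y_circ by edgeR. At an unadjusted p under 0.05 the counts were 8, 4 and 8. Over all pairs of type and gene, 242 of 10227 (2.37%), 32 of 11379 (0.281%) and 37 of 11076 (0.334%) were called. The median Mmp9 difference over types was -0.08, -0.03 and -0.05 on the log2 scale, and 7 of the 8 types under the unadjusted threshold on the radius were lower outside. These included 26_Novel (-0.36 ± 0.12, adjusted p = 0.119), 34_Novel (-0.28 ± 0.10, adjusted p = 0.137) and 30_Novel (-0.24 ± 0.09, adjusted p = 0.138). With at least 100 cells on each side 30_Novel passed on the radius (-0.31 ± 0.10, edgeR adjusted p = 0.047, 4 retinas) and 45_AlphaOFFT on Y_circ (1.14 ± 0.17, edgeR adjusted p = 7.9e-08, 3 retinas). That fit held only 3 of the 5 retinas, and retina 3, with 173 cells of 45_AlphaOFFT, could not enter it. By retina (closing section), the log2 ratio was smaller in retina 3 than in retinas 1, 2 and 4. It was below 0 in retina 5. With all 5 retinas the difference was 0.71 ± 0.21 (edgeR adjusted p = 0.227). Leaving out 1 retina also made calls: on the radius 45_AlphaOFFT without retina 1 and 30_Novel and 34_Novel without retina 3, and on Y_circ 45_AlphaOFFT without retina 5.

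Cells of the same type with and without Mmp9 differed in many other genes. If the panel genes, Mmp9 included, were used to assign types, these differences may follow in part from that assignment, which was not tested. In 10_Novel 3141 cells with at least 1 punctum were compared with 281 without, in 24_Novel 2838 with 119 and in 16_ooDS_DV 4835 with 1060, as sums per retina. Of 280 genes tested in 10_Novel, 93 (33.2%) were higher and 101 (36.1%) lower in cells with Mmp9 at an edgeR adjusted p under 0.05. In 24_Novel 55 (21.4%) were higher and 70 (27.2%) lower of 257. In 16_ooDS_DV 86 (30.6%) were higher and 73 (26.0%) lower of 281. Cells with Mmp9 were also deeper, with retina means of 408 to 454 puncta per cell in 10_Novel against 228 to 316 in cells without. With every cell thinned to 100 puncta the counts were 75 higher and 85 lower in 10_Novel, 62 and 69 in 16_ooDS_DV, but 31 and 43 in 24_Novel. With only cells of at least 300 puncta, added after seeing the data, they were 83 and 84, 51 and 60, and 60 and 59 in the same order, so that the total in 16_ooDS_DV was 111 in place of 159.

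The deepest falls with Mmp9 included many genes of bipolar cells, although most of the lower genes (89 of 101, 59 of 70 and 61 of 73 in 10_Novel, 24_Novel and 16_ooDS_DV) are not on the bipolar list. Vsx1, a homeobox factor of bipolar cells, was at 0.798, 0.467, 1.24, 0.824 and 1.63 per 10000 puncta in 10_Novel cells with Mmp9 and at 28.4, 57.5, 88.4, 76.9 and 76.3 in those without, in retinas 1 to 5. The groups were apart in every retina (log2 difference -5.60 ± 0.27, edgeR adjusted p = 6.3e-12). Gsg1 fell by 5.75 ± 0.41 in 24_Novel (edgeR adjusted p = 1.8e-14) and by 4.15 ± 0.34 in 16_ooDS_DV (edgeR adjusted p = 1.2e-05). Grm6, the glutamate receptor of ON bipolar cells, fell by 4.53 ± 0.31 in 10_Novel and by 3.75 ± 0.39 in 16_ooDS_DV. Trpm1, the channel it controls, and Otx2 fell by 3.50 ± 0.26 and 3.73 ± 0.27 in 24_Novel. Lhx1, a factor of horizontal cells that is also found elsewhere, fell by 5.93 ± 0.42 in 10_Novel. In all, 12 of 13 bipolar genes were lower in 10_Novel, 11 of 13 in 24_Novel and 12 of 13 in 16_ooDS_DV, with medians of -3.73, -3.46 and -2.77 against medians over all genes of -0.05, -0.13 and 0.02.

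With all cells, the medians of the other lists of retinal cells lay nearer 0 than that of the bipolar list, and their counts are read against 36.1%, 27.2% and 26.0% of all genes lower in the 3 types. All 4 rod genes were lower with Mmp9 in 10_Novel and 16_ooDS_DV and 1 of 4 in 24_Novel. The median of the rod list was -1.70, -0.98 and -0.99 in 10_Novel, 24_Novel and 16_ooDS_DV. Of the Müller glia genes 4 of 5, 2 of 5 and 1 of 5 were lower in 10_Novel, 24_Novel and 16_ooDS_DV, and of the amacrine genes tested 7 of 12, 1 of 10 and 3 of 12, with 1 higher in 10_Novel and 1 in 16_ooDS_DV. The shares of rod and amacrine genes in 24_Novel and of Müller glia and amacrine genes in 16_ooDS_DV were below that of all genes. The horizontal cell list, which shares Calb1 with the direction-selective list, had 4 of 7, 4 of 6 and 6 of 7 lower, and 2, 1 and 1 higher. Of the cone genes tested (2 or fewer a type), 1 was lower in 10_Novel and 1 in 16_ooDS_DV. Of the astrocyte, endothelial and pericyte genes tested (2 or fewer a list), 0 were called by edgeR, with 1 astrocyte and 1 endothelial gene at an unadjusted p under 0.05 in 10_Novel and none in the other types, and the microglial genes had too few puncta to be tested. RGC genes ran the opposite way: 5 of 6 were higher with Mmp9 in 10_Novel, 2 of 6 in 24_Novel and 4 of 6 in 16_ooDS_DV, against 33.2%, 21.4% and 30.6% of all genes higher. Without the rich cells 5 of 6 were higher in 10_Novel and 2 of 6 in 24_Novel, and in 16_ooDS_DV 2 of 6 were higher and 1 lower. Of all genes 26.6%, 18.2% and 28.1% were higher in that setting. The medians of the RGC list were then 0.65, 0.06 and 0.12.

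Without the cells rich in bipolar genes, whose removal lowers these genes by construction, 6 of 9 bipolar genes tested were still lower with Mmp9 in 10_Novel, 0 of 9 in 24_Novel and 6 of 12 in 16_ooDS_DV, with medians of -0.89, 0.13 and -0.45. The counts in this setting are read against 30.8%, 17.8% and 33.9% of all genes lower, with medians of -0.15, -0.09 and -0.13. The deepest falls among the genes named in 10_Novel were of genes not on the bipolar list. They were Cdh8 (1.96 ± 0.27), Qpct (1.90 ± 0.28), Lrtm1 (1.89 ± 0.36), Neurod4 (1.88 ± 0.30) and Gabrr2, a subunit of a GABA receptor (1.87 ± 0.32). Between 10_Novel cells with at least 10 and those with under 3 Mmp9 puncta, also without the rich cells, Vsx1 fell by 1.72 ± 0.37 (edgeR adjusted p = 4.6e-05). All 4 rod genes were still lower in 10_Novel and 16_ooDS_DV and 0 of 4 in 24_Novel, with medians of -1.60, -0.87 and -0.65, farther from 0 than those of the bipolar list. In 10_Novel, 24_Novel and 16_ooDS_DV, 8 of 11, 2 of 10 and 5 of 11 amacrine genes were lower and 0, 0 and 1 higher. Their medians were -0.95, -0.50 and -0.17. Of the horizontal cell list 2, 1 and 5 of 6 were lower and 2, 1 and 1 higher, and of the Müller glia genes 1, 0 and 1 of 5 were lower. The part of the rich cells in the differences that follow was not tested beyond their removal.

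**Figure D4:**
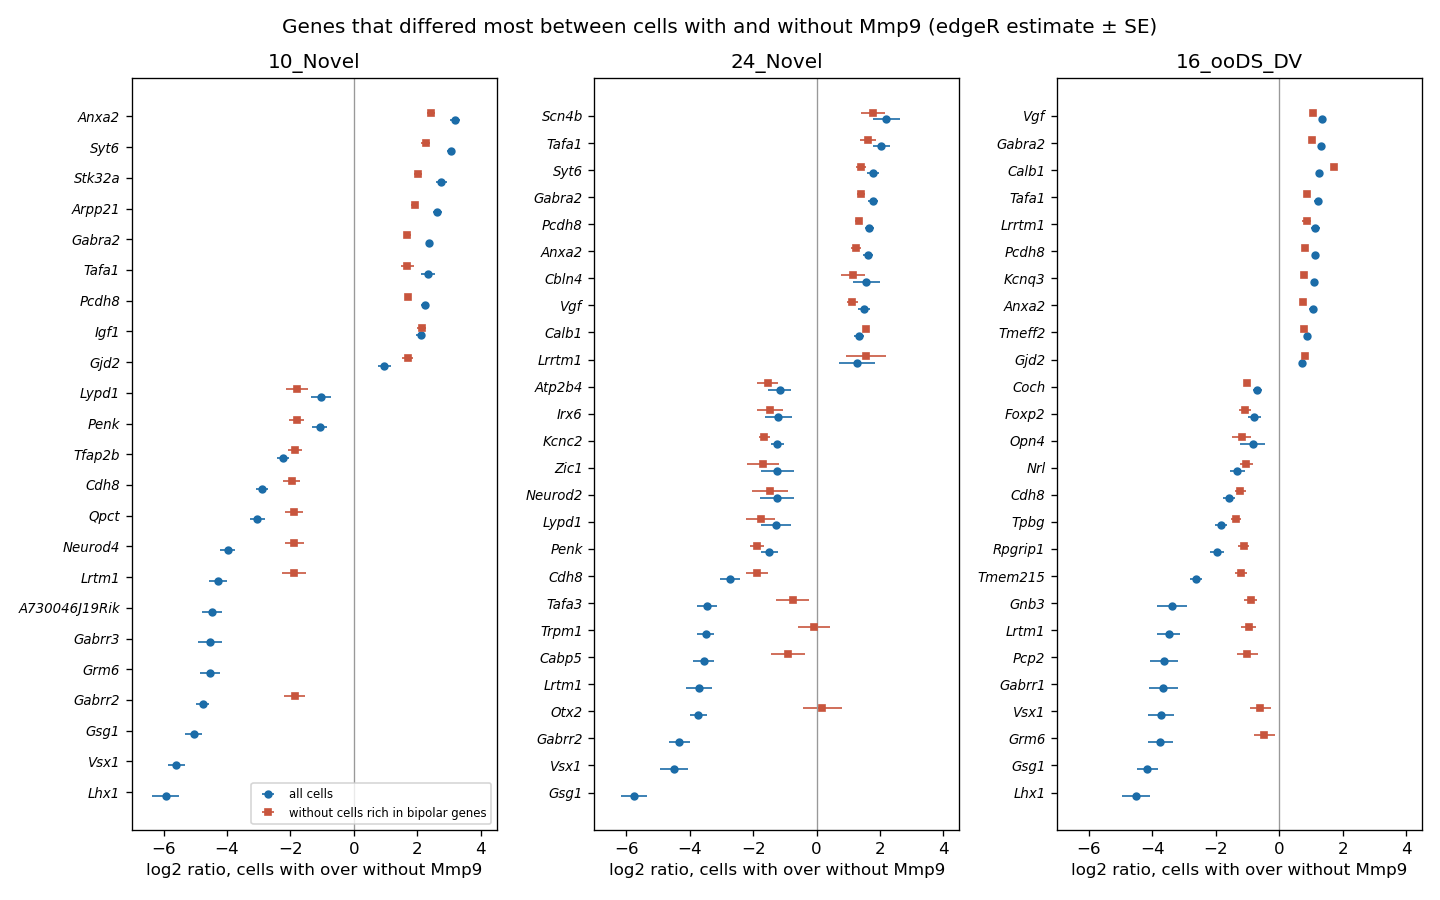
Log2 ratio of each gene (horizontal axis, edgeR estimate with SE as bars) between cells with and without Mmp9 in 10_Novel, 24_Novel and 16_ooDS_DV, for the genes that changed most in either direction; circles are all cells, squares leave out cells rich in bipolar genes, and a gene without a square had too few puncta to be tested. Vsx1, Gsg1 and Grm6 lie between -5.75 and -3.72 with all cells and lie near 0 or drop out of the test without the rich cells, which were removed by the sum of such genes, while Anxa2 in 10_Novel stays at 2.43 and Calb1 in 16_ooDS_DV at 1.73.

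Many genes that rose with Mmp9 were also called without the cells rich in bipolar genes, an alternative chosen after seeing the data. It called 70 higher and 81 lower in 10_Novel (26.6% and 30.8% of 263), 45 and 44 in 24_Novel (18.2% and 17.8% of 247) and 77 and 93 in 16_ooDS_DV (28.1% and 33.9% of 274). Of the genes higher with all cells, 69 of 93, 42 of 55 and 73 of 86 were called higher again, and of the lower genes 61 of 101, 28 of 70 and 50 of 73, while 43 of the 93 lower in 16_ooDS_DV were not called with all cells. Anxa2, a calcium-dependent membrane protein that binds plasminogen at the cell surface, was at 82.8, 92.5, 75.3, 77.7 and 72.7 per 10000 in 10_Novel cells with Mmp9 and at 16.02, 14.3, 11.96, 8.62 and 10.1 in those without. Its log2 difference was 3.19 ± 0.17 (edgeR adjusted p = 1.3e-11) with all cells and 2.43 ± 0.14 (edgeR adjusted p = 6.6e-10) without the rich ones. Syt6, a synaptotagmin, rose by 3.06 ± 0.14 and Igf1, a growth factor, by 2.11 ± 0.15 in 10_Novel, and by 2.27 ± 0.15 and 2.13 ± 0.15 without the rich cells. In 24_Novel the sodium channel subunit Scn4b led with 2.20 ± 0.41 (edgeR adjusted p = 1.8e-05), from 12.3 to 14.3 per 10000 with Mmp9 against 0 to 7.21 without. The cells without Mmp9 there numbered only 15 to 36 a retina, at 271 to 343 puncta per cell. Their Scn4b levels thus rest on few puncta.

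In 16_ooDS_DV, Calb1, the calcium-binding protein calbindin, rose with Mmp9, after Vgf and Gabra2 in size with all cells. Its levels were 227, 238, 229, 250 and 208 per 10000 in cells with Mmp9 and 89.5, 156, 140, 129 and 94.5 in cells without, with no overlap. The log2 difference was 1.27 ± 0.11 (edgeR adjusted p = 1.2e-05). Without the cells rich in bipolar genes, Calb1 in cells without Mmp9 was lower, at 73.7 to 90.7, and the difference rose to 1.73 ± 0.05. Between cells with at least 10 and those with under 3 Mmp9 puncta, again without the rich cells, it was 2.11 ± 0.04. With all cells, Vgf, a secreted neuropeptide precursor, rose by 1.36 ± 0.07 and Gabra2, a subunit of the GABA-A receptor, by 1.31 ± 0.06. Pcdh8, an adhesion molecule of the protocadherin family, rose by 1.12 ± 0.08. Of the direction-selective list, 3 of 4 genes were higher in 10_Novel, 2 of 3 in 24_Novel and 3 of 4 in 16_ooDS_DV (33.2%, 21.4% and 30.6% of all genes). Without the rich cells 2 of 4 were higher and 1 lower in both 10_Novel and 16_ooDS_DV, and 2 of 3 higher in 24_Novel. Of all genes in that setting, 26.6% were higher and 30.8% lower in 10_Novel, 28.1% and 33.9% in 16_ooDS_DV, and 18.2% and 17.8% in 24_Novel.

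The 3 types shared much of this pattern. With all cells 48 genes were higher with Mmp9 in each of them, which is 51.6% of the list in 10_Novel, 87.3% of that in 24_Novel and 55.8% of that in 16_ooDS_DV, and 47 were lower in each. Without the rich cells 35 were higher in all 3 (50%, 77.8% and 45.5% of the lists), among them Anxa2, Calb1, Gabra2, Pcdh8, Syt6, Tafa1 and Vgf. The 20 lower in all 3 (24.7%, 45.5% and 21.5%) included Cdh8, a classical cadherin, and Penk, the enkephalin precursor. Cdh8 fell by 1.96 ± 0.27, 1.88 ± 0.34 and 1.22 ± 0.17 there, and Penk by 1.81 ± 0.23 in 10_Novel and 1.88 ± 0.23 in 24_Novel. Igf1, which rose in 10_Novel, fell by 0.60 ± 0.18 with Mmp9 in 16_ooDS_DV (all cells, edgeR adjusted p = 0.014), from 11.1 to 20.5 per 10000 in cells without Mmp9 against 6.04 to 9.48 in cells with it. The difference between the types was not tested.

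With all cells, the matricellular genes were called less often than all genes, both higher and lower. The shares of all genes higher and lower were 33.2% and 36.1% in 10_Novel, 21.4% and 27.2% in 24_Novel, and 30.6% and 26.0% in 16_ooDS_DV. Of the 9 matricellular genes, 8 were tested in 10_Novel, with Igfbp5 (1.32, edgeR adjusted p = 0.00014) and Sparc (0.56) higher and Ndnf lower by 2.73. In 24_Novel 1 of 8 was called, Ndnf, lower by 2.10. In 16_ooDS_DV 9 were tested, with Sparc higher by 0.34 and Ndnf and Coch lower by 1.89 and 0.69. Their medians were 0.19, 0.45 and 0.01, against -0.05, -0.13 and 0.02 over all genes. Without the rich cells 1 of 9 was higher and 2 lower in 10_Novel (26.6% and 30.8% of all genes). In 24_Novel 0 of 8 were higher and 1 lower (18.2% and 17.8%). In 16_ooDS_DV 0 of 9 were higher and 4 lower (28.1% and 33.9%), so Sparc was no longer called higher. The medians were then -0.26, 0.11 and -0.31, against -0.15, -0.09 and -0.13 over all genes. Ndnf is also on the horizontal cell list. With all cells, Serpine2 was higher with Mmp9 in 16_ooDS_DV (0.96, edgeR adjusted p = 0.018) and at -0.23 (edgeR adjusted p = 0.696) in 10_Novel. Along the axes, 3 of the 10 matrix genes rose above 0 on X_circ, Spp1 (0.56 ± 0.05, edgeR adjusted p = 0.0028), Igfbp5 (0.21 ± 0.04) and Coch (0.18 ± 0.05), against 10.0% of all genes, and 0 of 10 were called on the radius or on Y_circ.

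Cells of types with little Mmp9 had more of it where a cell of a leading type lay close by. The 40817 cells of the 22 types below the median level were split, within each of 37 sections, into quartiles by distance to the nearest 10_Novel, 24_Novel or 16_ooDS_DV cell, in the table's own position units, which carry no stated scale. In retinas 1 to 5 the nearest quartile had 22.2, 24.1, 23.7, 18.9 and 22.97 Mmp9 puncta per 10000. The farthest had 11.9, 9.87, 11.4, 8.20 and 10.6. The groups did not overlap, and the log2 ratio was 1.11 ± 0.15 (SD, n = 5), higher in 5 of 5 retinas, with a two-sided exact sign-flip permutation p of 0.063, the smallest that 5 retinas allow. The higher level lay in the nearest quartile: from near to far the quartiles had 22.4 ± 2.1, 11.3 ± 1.9, 9.39 ± 0.77 and 10.4 ± 1.4 per 10000 at median distances of 12.2, 21.1, 30.98 and 52.2. The share of cells with Mmp9 was 36.5% ± 1.9 in the nearest and 21.2% ± 2.8 in the farthest quartile, at median depths of 315 and 293 puncta per cell.

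Of the 282 genes in this split Mmp9 had the highest ratio, but both the reference cells and the low types were picked by their Mmp9, so its rank supports nothing. The next was Isl2 at 0.37 on the log2 scale, followed by Syt6, Calb1, Syndig1l and Pou4f3, and the median over genes was -0.09. In all, 42 of 282 genes (14.9%) were higher in the nearest quartile in all 5 retinas. Taken type by type, added after seeing the data, the mean was higher near than far in 42 of 42 types outside the leading 3, and in 35 of them in every retina, with ratios from 1.17 (39_Novel) to 2.94 and a median of 2.04. In the farthest quartile the highest levels were 45.5 ± 9.3 per 10000 in 23_W3D2, 33.3 ± 4.8 in 39_Novel and 30.2 ± 6.7 in 30_Novel, and the lowest 6.88 in 42_AlphaOFFS and 6.78 in 43_AlphaONS. 01_W3D1.1 had 57.5 ± 7.6 near and 25.5 ± 2.2 far. Signal assigned across cell borders and a level of the cells themselves cannot be told apart with these counts.

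**Figure D5:**
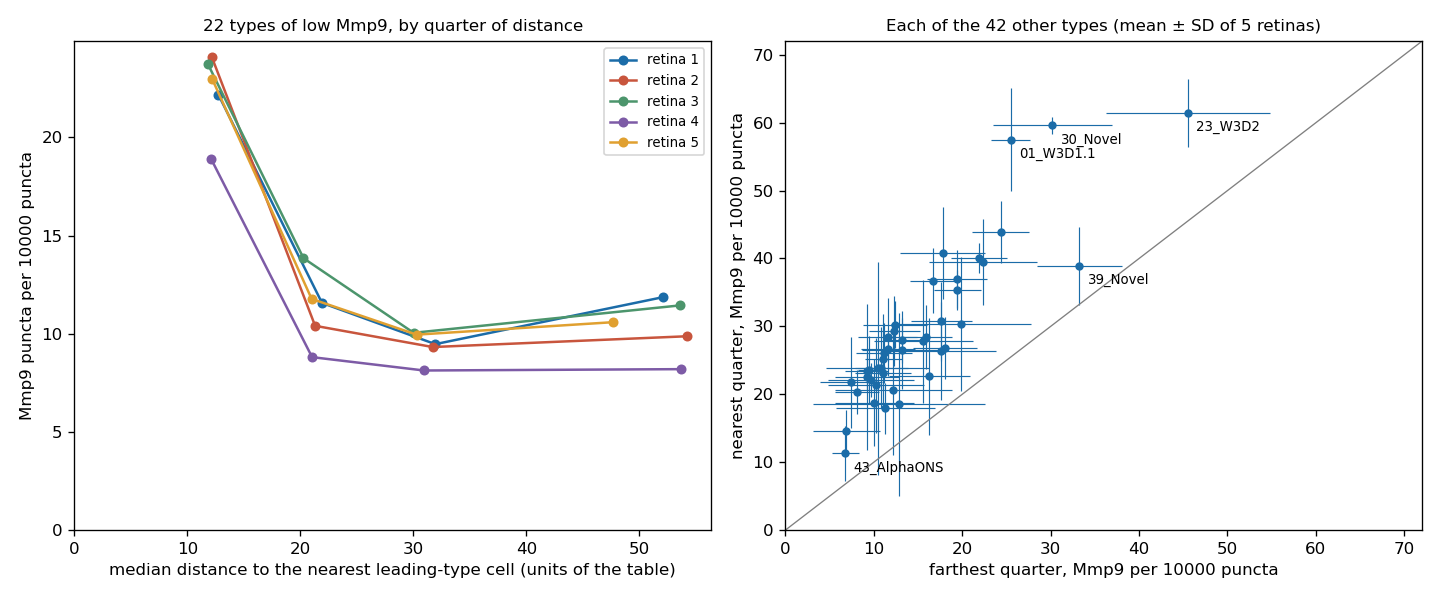
Left, Mmp9 puncta per 10000 puncta in the 22 types with little Mmp9 (vertical axis) by median distance of each quartile of cells to the nearest leading-type cell (horizontal axis, units of the table), 1 line per retina. Right, level in the nearest against the farthest quartile for each of the 42 other types, mean with SD of 5 retinas as bars; every type lies above the line of equality, and 23_W3D2 is highest on both axes.

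Among the genes whose levels over the 45 types were most like Mmp9, by Spearman's rho of levels per 10000 puncta over 299 genes, were Pcdh8 (0.70, from 0.55 to 0.75 in single retinas), Grm4 (0.56), Cacna1a (0.51) and Syt6 (0.50). Cacna1a encodes a calcium channel and Grm4 a glutamate receptor. The least alike were Frmd5 (-0.56), Kcnb2 (-0.52), Eomes (-0.51), the T-box factor of melanopsin RGCs, and Igfbp2 (-0.45). These are descriptions over 45 types that share libraries and depth, with a median rho of 0.04 over all genes. Pcdh8 was at 212 per 10000 in 10_Novel, 178 in 24_Novel and 154 in 16_ooDS_DV against a median of 35.01, but was highest in 12_ooDS_NT, where Mmp9 was low. Syt6 was at 177, 71.6 and 19.0 against a median of 16.2. By Pearson's r of log2 levels, which weights the 3 leading types more, the top 6 were Pcdh8, Lhx1, Kcnab1, Syt6, Calb1 and Anxa2, of which 2 are shared. All of these but Lhx1 were also higher in cells with Mmp9 within each of the 3 leading types. Lhx1 was lower with Mmp9 in 10_Novel and 16_ooDS_DV.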

How the data were processed

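The deposited table holds counts, per the file headers: whole puncta of each of 300 genes per cell, made by the authors, with retina, slide, section, position, volume and type, used as deposited. For segmentation, cell filtering and typing, methods are not given in the sources used here. The 4 deposited samples are pairs of slides with no tie to the table's slides, so the 5 retinas were the replicates. Retinas 4 and 5, and 3 and 5, share a slide. Gene, lists and tests were chosen with earlier results of these data known.

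Levels were Mmp9 puncta per cell, or per 10000 puncta, per type and retina, as mean ± SD. Counts were summed per retina and side and tested with edgeR 4.0.16 (quasi-likelihood, TMM, retina as block, Benjamini-Hochberg over all genes or pairs), with DESeq2 1.42.0 as alternative; the same-mix comparison used limma 3.58.1 on log2(level per 10000 + 0.01) averaged over types with at least 20 cells a side. Fits were tested on simulated data. Named genes were up to 8 per direction with the largest changes, adjusted p under 0.05, one direction in every retina and at least 100 puncta; the 6 most and 4 least alike; and all list members; some of the genes most alike are not reported here. Alternatives are in the closing section. Intervals cover these retinas only.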

Additional observations from a re-analysis of the deposited data

Results flagged for a closer look

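Of 63 sets of 5 retinas examined for a value standing apart, 2 did; chance gives about 1 in 20. In 26_Novel the lowest retina, retina 4, had 0.398 Mmp9 puncta per cell, and the nearest of the others 0.543. Along the radius, 24_Novel had a log2 difference of 0.15 in retina 3, against -0.05 in the nearest of the others. Retina 3 holds the fewest cells, 13127.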

How the results depend on the processing

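Mmp9 was not called over all RGCs on any axis under any alternative run (DESeq2, total puncta without TMM, no filter, slide or section as block, outermost against innermost cells, each retina left out, without the 3 leading types, without cells rich in bipolar genes). On the radius the sign turned without the 3 leading types (-0.12) and ranged from -0.000168 to 0.0421 with each retina left out, turning without retina 3. With the same mix of types the X_circ difference ranged from -0.0212 to 0.0144 with each retina left out, turning without retinas 4 and 5. No other axis value changed sign. Some moved by over 1.5 times: the radius from 0.02 to 0.09 with slide as block, 0.08 with section as block, 0.03 without TMM and 0.05 for outermost against innermost cells; X_circ from -0.04 to -0.11, -0.12 (unadjusted p = 0.028) and, outermost against innermost, -0.07; and Y_circ from -0.04 to -0.02 with slide as block and -0.07 outermost against innermost, to -0.02 without the 3 leading types, and to between -0.06 and -0.009 with each retina left out. On X_circ leaving out a retina gave -0.06 to -0.03. Without the replicate block the 3 axis values were 0.02, -0.04 and -0.04, and the genes called with Mmp9 within types 195, 135 and 148 in place of 194, 125 and 159; Mmp9 was called on no axis in either fit. The retinas are the blocks by design, since both sides of each split come from the same retina. Types with Mmp9 called went from 0 to 1 on the radius and from 0 to 1 on Y_circ with at least 100 cells a side, and with each retina left out ranged from 0 to 2 on the radius and from 0 to 1 on Y_circ. Counts of all genes called moved more: in place of 20 on the radius, 30 on X_circ and 0 on Y_circ, DESeq2 called 44, 50 and 6, section as block 51, 57 and 64, and no replicate block 1, 1 and 0. Without the rich cells the radius had 31, and outermost against innermost cells gave 12 on the radius and 3 on Y_circ. With each retina left out they ranged from 2 (without retina 4) to 53 (without retina 1) on the radius, from 2 (without retina 2) to 43 (without retina 5) on X_circ, and from 0 to 2 on Y_circ; over pairs of type and gene from 55 to 440, 10 to 115 and 0 to 241, and with at least 100 cells a side 207, 56 and 173 in place of 242, 32 and 37. With the same mix of types, 23 were called on the radius without retina 1 and 1 on Y_circ without retina 3, in place of 0. Genes called in 24_Novel fell from 125 to 74 with cells thinned to 100 puncta. Relative to the median type, 10_Novel was at 26.0 per 10000 puncta and 26.6 per volume, and 24_Novel at 19.0 and 19.5, in place of 33.7 and 23.96 per cell. Of the 6 genes most like Mmp9, 2 remained by Pearson's r. The number of retinas limits all tests, and types with few cells leave their order open to counting error.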

Other observations

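Outside the 3 leading types, 443 of 119105 cells (0.372%) held at least 10 Mmp9 puncta, and these gave 6.93% of the 78438 Mmp9 puncta found there. Among cells of the 22 types with little Mmp9 the share was 0.366% in the quartile nearest to a leading-type cell and 0.120% in the farthest.

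45_AlphaOFFT, an alpha RGC type by its label, had the largest Mmp9 difference along Y_circ of the types tested in all 5 retinas. By retina the log2 ratio above over below 0 was 1.27, 1.09, 0.24, 1.49 and -0.18, higher in 4 of 5. The fitted difference was 0.71 ± 0.21 with an adjusted p of 0.227 by edgeR, so it did not pass. On the radius it was 0.42 ± 0.16 (edgeR adjusted p = 0.188) and on X_circ -0.36 ± 0.12 (edgeR adjusted p = 0.215).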
